A study of Arabidopsis thaliana with 24 samples.

Results

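The genes described here were raised 24 h after benzothiadiazole (BTH) in wild-type Arabidopsis and in both single kinase mutants, and stood at that level or higher in the mkk1/mkk2 double mutant before any BTH was given. They number 143 and were chosen by their measured values among the 13513 probe sets (13350 genes) that the annotation gives to a single gene. A gene was selected where its mean after BTH lay at least 1 log2 unit (2-fold) above its untreated mean in Col-0, in mkk1 and in mkk2, where every BTH array lay above every untreated array in each of these, and where the untreated mkk1/mkk2 mean was not below the BTH-treated Col-0 mean. CHI, GRX480, UGT76B1, RING1 and the UGT, CYP and WRKY families were left out by name, which removed 6 genes that met the rest. The BTH part of this choice was met by 432 probe sets whether or not they were given to a single gene. Of these, 308 (71.3%) also met the mkk1/mkk2 part, 159 of them not given to a single gene. A further 56 single-gene probe sets (55 genes) met the BTH part but lay below the BTH-treated Col-0 mean in untreated mkk1/mkk2, so the 143 were 71.9% of the probe sets in both sets.

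BTH is a synthetic compound that acts like salicylic acid, the hormone that plants make against biotrophic pathogens. It works through the coactivator NPR1 and switches on defence genes in leaves that were not themselves attacked. MKK1 and MKK2 are related MAP kinase kinases that act between the kinases MEKK1 and MPK4, and plants that lose this cascade are known to be dwarfed and to run defence responses without infection.

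The 24 ATH1 arrays, each hybridized with biotin-labelled RNA from whole plants, formed 8 groups of 3. Col-0, mkk1 (line SALK_027645), mkk2 (line Garlic_511-HO1) and mkk1/mkk2, for which the labels name no alleles, were each taken untreated and 24 h after BTH. The untreated Col-0 samples were taken at time 0, the labels give no time for untreated mutants, and no group was sprayed without BTH. Plants grew in soil under short days, in a greenhouse or a growth chamber, and their age is not given in the sources used here. The groups rest on titles and source names, because other label fields disagree with these: each sample is described as untreated Col-0, and a spray of 100 µM BTH is noted only for BTH samples of mkk2 and the double mutant, with a control treatment for those of Col-0 and mkk1. The labels do not say that replicates were separate plants, so the p-values below measure the spread between these samples. In whole plants, a change in RNA per cell cannot be told apart from a change in the share of the cells that make it.

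The annotation used gave MKK1 and MKK2 themselves no single-gene probe set, so the genotype labels were not checked on the mutated genes. Untreated mkk1/mkk2 array A correlated with its own group at 0.934, against 0.961 and 0.962 for arrays B and C. Array A of Col-0 after BTH (0.975) and array B of untreated mkk2 (0.976) were the next lowest. The spike-in difference bioC minus bioD lay between -3.82 and -3.54 on the 12 arrays of the single mutants and between -2.51 and -2.01 on the other 12 arrays. No label gives hybridization dates, so whether this reflects a batch is not known. Whatever lies behind the spike-in difference cannot be told apart from genotype where a single mutant is compared with Col-0 or mkk1/mkk2. The 3′ minus 5′ signal of GAPDH, a measure of RNA integrity, was 0.60 to 0.73 in Col-0 and 0.14 to 0.52 in mkk1/mkk2 after BTH. On the BTH-treated arrays of the single mutants it was -0.04 to 0.23 in mkk1 and -0.07 to 0.19 in mkk2, below every BTH-treated Col-0 array. In untreated plants it was 0.70 to 1.18 in Col-0 and 0.26 to 0.61 in the single mutants. On untreated mkk1/mkk2 arrays A, B and C it was 1.27, 0.86 and 0.29, array A being the highest of the 24. Its part in the comparisons below was not tested.

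Across the 143 genes, the median level in untreated plants was 5.66 in Col-0, 5.71 in mkk1 and 5.67 in mkk2, close to the median of all probe sets (5.61 to 5.75 by group), and it was 8.39 in mkk1/mkk2. After BTH it was 7.39 in Col-0, 7.66 in mkk1, 7.91 in mkk2 and 8.43 in mkk1/mkk2. All levels are log2 RMA values. By array, the members' median was 8.24, 8.51 and 8.68 (A, B and C) in untreated mkk1/mkk2 and 7.02, 7.49 and 7.62 in BTH-treated Col-0. The lowest untreated mkk1/mkk2 array therefore stood above the highest array of Col-0 after BTH, and all 3 mkk2 BTH arrays (7.97, 7.86 and 8.02) lay between them. These levels chose the members and are given as a description.

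**Figure D1:**
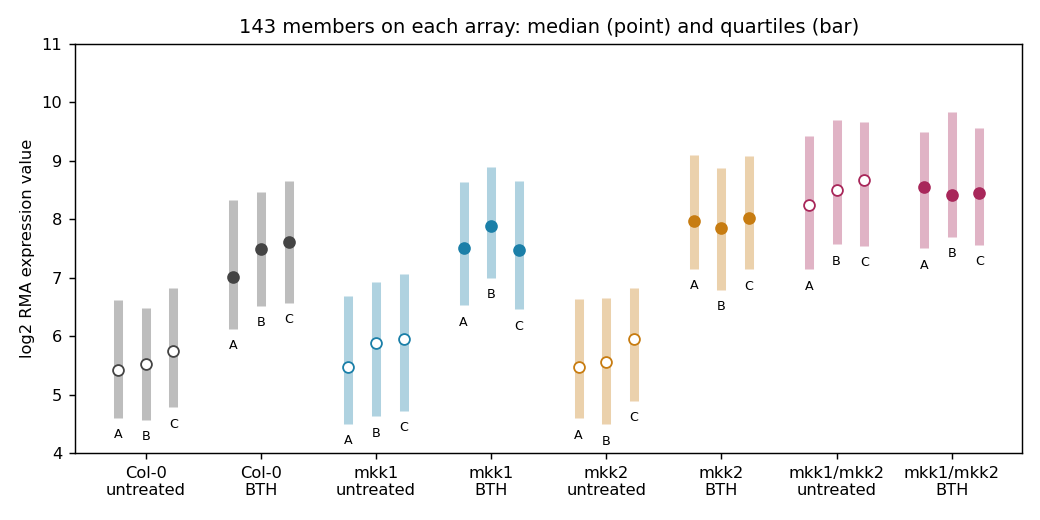
Log2 RMA value of the 143 members on each of the 24 arrays, by group (x axis). Points are the median over members (open, untreated, and filled, 24 h after BTH) and bars run from the lower to the upper quartile of the members; the untreated mkk1/mkk2 arrays, with medians from 8.24 to 8.68, stand beside the BTH-treated mkk1/mkk2 arrays, with medians from 8.42 to 8.56.

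The amount by which untreated mkk1/mkk2 exceeded BTH-treated Col-0 varied widely among the genes, from 0.0 to 4.38 with a median of 0.78. It was under 0.5 for 49 genes, at least 1 for 61, at least 2 for 21 and at least 3 for 5. All 3 untreated mkk1/mkk2 arrays lay above all 3 BTH-treated Col-0 arrays for 71 members. Over all probe sets tested, 11.2% showed that pattern, and since the same values chose the members nothing is read from the difference. Against untreated Col-0, the untreated double mutant was higher by a median of 2.51 (5.68-fold), with no overlap of arrays for 139 members (17.2% of all probe sets). In untreated mkk1/mkk2, 122 members (85.3%) were at or above the BTH-treated mkk1 mean, and 114 (79.7%) were at or above the BTH-treated mkk2 mean. The choice used the arrays of all these groups, so these counts are a description and nothing is read from them.

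**Figure D2:**
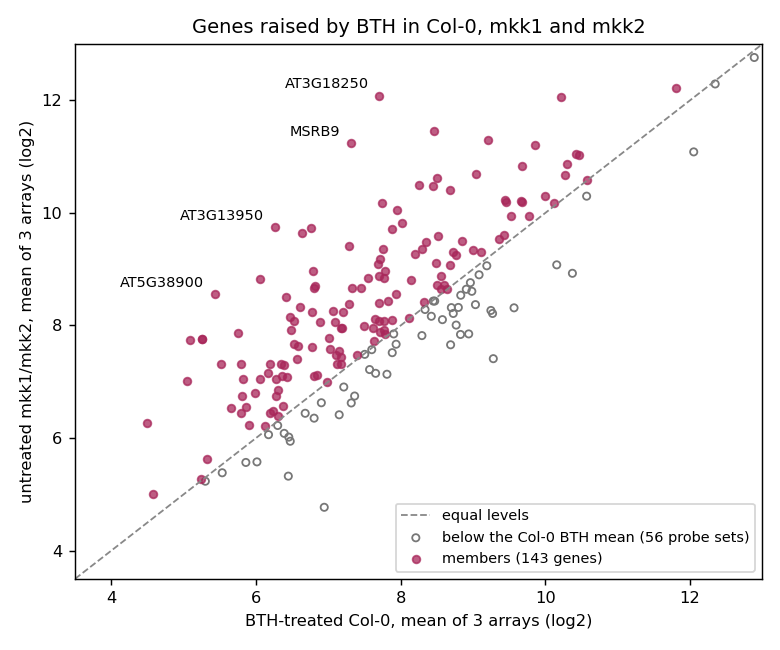
Mean log2 RMA value of 3 arrays in BTH-treated Col-0 (x axis) and in untreated mkk1/mkk2 (y axis) for the 143 members (filled) and the 56 other BTH-raised probe sets (open), with a dashed line of equal levels. The choice puts the members on or above the line; 21 of them are at least 2 log2 units above it, MSRB9, AT3G18250, AT3G13950 and AT5G38900 among the farthest.

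The untreated double mutant was also the group in which the members varied most between arrays. The median standard deviation over its 3 arrays was 0.52, against 0.17 after BTH in the same genotype. Over all probe sets these values were 0.31 and 0.13. The lowest of the 3 untreated values fell on array A for 77 members, on B for 39 and on C for 27, while the highest fell on A for 54, on B for 42 and on C for 47. Array A was thus both the lowest and the highest for many genes. Each of the 3 arrays was at or above the BTH-treated Col-0 mean for 95 members.

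Only 13 members carry a gene symbol and 130 are known here by a locus identifier alone, so roles can be given for the 13. The member with a symbol that stood farthest above BTH-treated Col-0 was MSRB9, a methionine sulfoxide reductase, the enzyme class that repairs oxidized methionine. Its levels on arrays A, B and C were 5.38, 5.39 and 4.77 in untreated Col-0, 7.76, 7.20 and 6.98 in Col-0 after BTH, and 11.88, 10.85 and 10.99 in untreated mkk1/mkk2. None of these groups overlapped, and untreated mkk1/mkk2 was 3.93 above BTH-treated Col-0. In mkk1 it went from 6.60, 5.79 and 6.28 to 7.15, 7.77 and 7.64, and in mkk2 from 4.95, 6.92 and 5.36 to 9.09, 8.94 and 8.61. BTH-treated mkk2 was thus above both Col-0 and mkk1 after BTH and below the untreated double mutant.

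A pair of metabolic genes followed. cwINV6, a member of the cell wall invertase family of sucrose- and fructan-splitting enzymes, only just met the required BTH difference in Col-0 (1.0), where arrays read 4.35, 4.50 and 3.90 untreated and 4.97, 5.37 and 5.41 after BTH. In untreated mkk1/mkk2 it read 7.36, 8.31 and 7.59, above every array of the other 3 genotypes. SUFE2, which activates cysteine desulfurase in iron-sulfur cluster assembly, read 5.61, 5.76 and 5.90 in BTH-treated Col-0 and 8.46, 7.49 and 7.65 in untreated mkk1/mkk2. ACLA-3, a subunit of the ATP-citrate lyase that supplies cytosolic acetyl-CoA, sat close to the BTH level instead. It read 8.52, 8.58 and 8.70 in BTH-treated Col-0 and 7.92, 9.13 and 9.09 in untreated mkk1/mkk2, so that array A fell below the Col-0 arrays and B and C above them.

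The genes with a symbol in signalling and transport included PUB24, a U-box ubiquitin ligase that, with close relatives, restrains responses to microbial patterns. PUB24 read 6.26, 6.82 and 7.26 in BTH-treated Col-0 and 7.02, 7.89 and 7.96 in untreated mkk1/mkk2, with overlap. GLR2.7 and GLR1.4, glutamate receptor-like cation channels, were 0.47 and 0.82 above BTH-treated Col-0, and ACA.l, annotated as an autoinhibited calcium ATPase, was 0.69 above it. CSA1, an immune receptor of the TIR-NB-LRR class, read 6.73, 7.92 and 8.27 in BTH-treated Col-0 and 7.75, 8.84 and 7.76 in untreated mkk1/mkk2, also with overlap. Its array A of BTH-treated Col-0 was barely above the untreated Col-0 arrays (6.62, 6.38 and 6.56).

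Of the remaining members with a symbol, SAL2, a relative of the SAL1 phosphatase, read 8.00, 9.16 and 9.39 in untreated mkk1/mkk2 against 7.29, 7.63 and 7.74 in BTH-treated Col-0, with no overlap. PRA1.G2, of the prenylated RAB acceptor family of membrane trafficking proteins, read 8.67, 6.67 and 6.63 in untreated mkk1/mkk2. Its high mean there rested on array A, and arrays B and C were still above the BTH-treated Col-0 arrays (6.04, 6.38 and 6.17). ENGase85A, an enzyme that releases N-glycans, was 0.26 above BTH-treated Col-0, and scpl16, a serine carboxypeptidase-like protein, was 0.03 above it and was the nearest to that limit among the 13.

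Among the genes known by locus, AT5G52760 had by far the greatest BTH difference, a mean of 5.22 over Col-0, mkk1 and mkk2. It read 5.23, 5.10 and 6.28 in untreated Col-0, 10.83, 10.33 and 9.73 in Col-0 after BTH, and 9.34, 11.56 and 11.70 in untreated mkk1/mkk2. Array A of untreated mkk1/mkk2 was below the Col-0 BTH arrays, while B and C were above them. Next came AT3G01830 (3.97), AT3G51330 (3.96), AT1G35710 (3.86) and AT4G01700 (3.40), followed by AT3G47480 (3.29), AT5G18470 (3.28), AT1G57630 (3.23), AT3G60420 (3.11), AT5G39670 (3.09) and AT1G72060 (2.95), with AT1G66880 and AT1G10340 level at 2.88.

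These strong responders did not all behave alike in the double mutant. AT1G57630 read 6.66, 7.13 and 6.58 in BTH-treated Col-0, 8.63, 7.86 and 8.36 in BTH-treated mkk2 and a tight 8.91, 8.80 and 9.18 in untreated mkk1/mkk2, which overlapped with neither. AT4G01700 read 7.15, 7.13 and 7.89 in BTH-treated Col-0 and 6.38, 8.35 and 7.67 in untreated mkk1/mkk2, a mean only 0.08 higher, with overlap. AT3G51330 read 8.14, 8.30 and 8.11 in BTH-treated mkk2 and 7.88, 7.42 and 7.15 in untreated mkk1/mkk2, so here the single mutant after BTH was the higher of the groups, without overlap.

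The greatest excess over BTH-treated Col-0 belonged to AT3G18250, by 4.38. Its arrays read 6.08, 5.84 and 5.24 in untreated Col-0, 7.42, 8.13 and 7.57 in Col-0 after BTH, and 12.67, 11.67 and 11.91 in untreated mkk1/mkk2. No group overlapped, and the excess was larger than the BTH difference in Col-0 (1.99). After MSRB9 came AT3G13950 with an excess of 3.49, AT5G38900 with 3.13, AT4G00700 with 3.0, AT2G18690 with 2.99, AT1G21520 with 2.96 and AT3G51440 with 2.77. AT5G38900 was a weak BTH responder in Col-0, from 4.22, 4.30 and 4.24 to 5.30, 5.76 and 5.22, and stood at 8.24, 8.39 and 9.04 in untreated mkk1/mkk2.

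**Figure D3:**
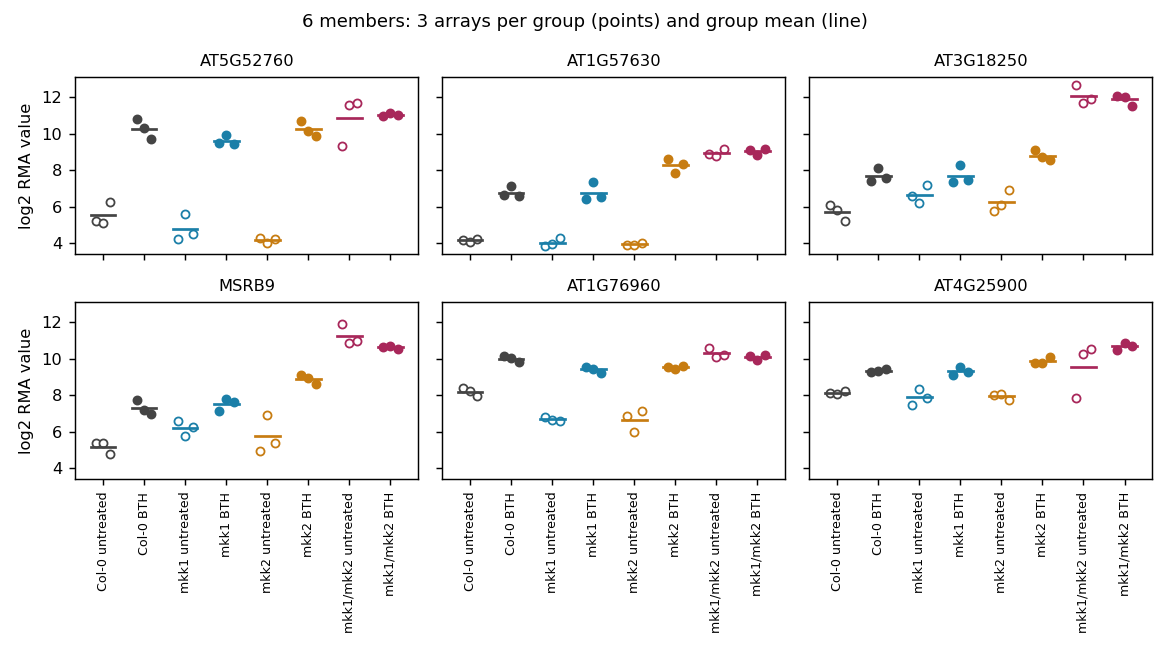
Log2 RMA values of 6 members on 3 arrays per group (points in the order A, B, C; open, untreated; filled, 24 h after BTH), with the group mean as a line. AT3G18250 and MSRB9 stand higher in both mkk1/mkk2 groups than in any other group, AT1G57630 varies little between the untreated mkk1/mkk2 arrays, array A is low in AT5G52760 and AT4G25900, and for AT1G76960 the untreated single mutants stand below untreated Col-0.

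At the edge of the choice, the members AT5G45500, AT2G26240 and AT4G14390 exceeded BTH-treated Col-0 by 0.0, 0.01 and 0.02, while AT3G57480, AT5G45510 and GPT, at -0.02, -0.02 and -0.03, lay just outside. These differences are small beside the members' median standard deviation of 0.52 in untreated mkk1/mkk2.

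The mkk1/mkk2 double mutant itself had a median BTH change near 0. The choice did not use its BTH-treated arrays, but it did require a high untreated mean, which favours a lower change and not a higher one. The median was 0.04 (1.03-fold) over the 143 genes, with 78 changes above 0, and 130 (90.9%) were under 0.5 in size. Over all probe sets the median change in mkk1/mkk2 was -0.04, so a median near 0 is not particular to these genes. The share of all probe sets under 0.5 in size is not given, and nothing is read from the 90.9%. The median changes in Col-0, mkk1 and mkk2, which the choice fixed to be at least 1, were 1.48, 1.63 and 2.02. By limma with Benjamini-Hochberg adjustment over 22746 probe sets (called at an adjusted p under 0.05), 0 of the 143 were called in either direction, with a lowest adjusted p of 0.299. At an unadjusted p under 0.05 there were 11. Over all probe sets, 0.264% were called higher and 0.0703% lower after BTH in mkk1/mkk2, so a count of 0 is near the background and is no result about these genes. The 95% interval of the change lay below 1 for 116 members and reached 1 for 27, which is given as a description because the untreated arrays chose the members.

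The largest change in mkk1/mkk2 was that of AT4G25900, which read 7.83, 10.27 and 10.53 untreated and 10.50, 10.86 and 10.72 after BTH. The change of 1.15 (95% interval 0.26 to 2.04, adjusted p = 0.309, limma) came from untreated array A, and without that array it was 0.29. AT1G65690 read 6.63, 7.96 and 8.68 untreated and 8.87, 8.40 and 8.62 after BTH, a change of 0.87 with an adjusted p of 0.326 by limma. It was the gene called (1.34, adjusted p = 0.0429) when untreated array C was left out. At the other end, AT5G05300 read 8.25, 7.20 and 7.46 untreated and 6.79, 6.63 and 7.05 after BTH, a change of -0.81 (95% interval -1.43 to -0.2, adjusted p = 0.301, limma). Without untreated array A the changes of all 143 members lay between -0.72 and 0.44, with a median of -0.01.

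**Figure D4:**
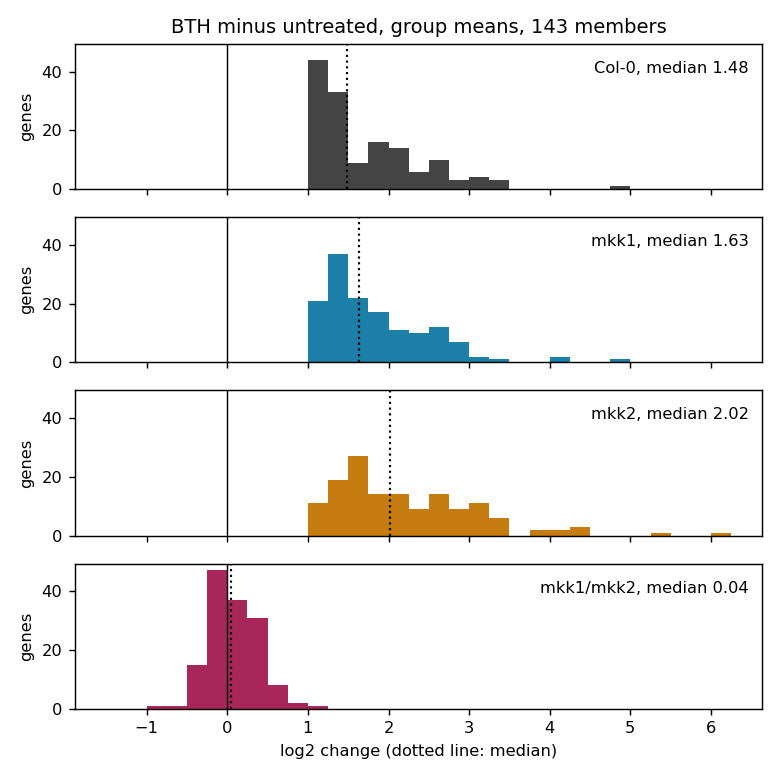
Number of members (y axis) by log2 change, BTH minus untreated group means (x axis, bins of 0.25), in Col-0, mkk1, mkk2 and mkk1/mkk2, with the median as a dotted line. The first 3 panels start at 1 because the choice required it; the mkk1/mkk2 changes centre on a median of 0.04 and run from -0.81 to 1.15.

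After BTH, the double mutant still stood above Col-0 for most of these genes. The members' median difference was 0.89 (1.85-fold), 134 of 143 were at or above the Col-0 level, and all 3 mkk1/mkk2 arrays lay above all 3 Col-0 arrays for 108, against 18% of all probe sets. By limma, 84 members (58.7%) were called higher, by 0.44 to 4.19, and 0 lower, where 11.4% of all probe sets were called higher and 10.2% lower. The BTH-treated mkk1/mkk2 arrays had no part in the choice, but the Col-0 BTH mean was its upper limit, which favours a higher mkk1/mkk2. The direction is therefore partly set by the choice, and the sizes are the description.

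AT3G18250 led here too, at 12.10, 12.04 and 11.54 in BTH-treated mkk1/mkk2, a difference from Col-0 of 4.19 ± 0.35 (SE, n = 3 per group, 18.2-fold, adjusted p = 2.64e-08 by limma). It was followed by AT3G13950 (3.65), AT5G38900 (3.56), AT1G65690 (3.38), MSRB9 (3.31) and AT2G18690 (2.97). MSRB9 read 10.62, 10.72 and 10.54, with no array near the BTH-treated Col-0 arrays (9.94-fold, SE 0.38 on the log2 scale, adjusted p = 1.98e-06 by limma). Among the other genes with a symbol, cwINV6 (2.71), SUFE2 (2.01), SAL2 (1.40) and GLR1.4 (1.08) were called higher. ENGase85A, GLR2.7, PUB24, ACA.l, PRA1.G2, scpl16, CSA1 and ACLA-3 were not called, with differences from 0.38 (scpl16) to 0.79 (PUB24).

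The double mutant was also set beside each single mutant after BTH. By limma it was called higher than mkk1 for 62 members (9.7% of all probe sets) and higher than mkk2 for 37 (8.97%), with 0 called lower in either (10% and 7.03% of all probe sets). The median difference was 0.72 from mkk1 and 0.48 from mkk2. The choice required a high untreated mkk1/mkk2 mean, which favours a higher mkk1/mkk2 here too, and it used the BTH-treated mkk1 and mkk2 arrays. The direction is therefore partly set by the choice, and nothing is read from the background. For 35 members (24.5%) it was called higher than each of Col-0, mkk1 and mkk2, and MSRB9, cwINV6, SUFE2 and SAL2 were among these. The 3 comparisons share the BTH-treated mkk1/mkk2 arrays, and the share of all probe sets called in each of them is not given. Nothing is read from this count. AT3G18250 was 4.18 above mkk1 and 3.09 above mkk2. Genotype and the spike-in difference cannot be told apart in both comparisons, and these comparisons were added after the values were seen. Leaving out 3 arrays (untreated mkk1/mkk2 A, BTH-treated Col-0 A and untreated mkk2 B) gave 64 calls against mkk2 in place of 37. Fitting only the arrays of the groups compared gave 96 against mkk1 (2 of them lower) and 75 against mkk2 (8 lower).

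Untreated single mutants lay near Col-0, as the choice partly required by asking for a BTH difference in each. The members' median difference from untreated Col-0 was 0.07 in mkk1 and 0.03 in mkk2. By limma, 10 members were called higher and 3 lower in mkk1, where 9.46% and 7.83% of all probe sets were called, and 2 higher and 2 lower in mkk2, where 3.5% and 4.13% were called. These shares are under the background, and the split in mkk1 moved to 4 higher and 4 lower after centring each array on its median and to 6 and 4 after a second quantile normalization. Untreated mkk1 and mkk2, which lie in the same range of the spike-in difference, did not differ by a call in any member. The count was 0 of 143, with 5 at an unadjusted p under 0.05 by limma, where 0.0044% of all probe sets were called.

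The genes called in untreated single mutants included some that went each way. AT1G76960 read 8.40, 8.26 and 7.95 in untreated Col-0 but 6.80, 6.65 and 6.57 in mkk1 and 6.86, 5.98 and 7.16 in mkk2. The groups did not overlap, and the differences were -1.53 ± 0.21 (SE, n = 3, adjusted p = 0.000272 by limma) and -1.54 ± 0.21 (adjusted p = 0.000585 by limma). After BTH it read 9.57, 9.46 and 9.23 in mkk1 and 9.57, 9.42 and 9.62 in mkk2. These arrays still lay below every BTH-treated Col-0 array (10.13, 10.06 and 9.81), with differences of -0.58 and -0.46 that were not called. Untreated mkk1/mkk2 read 10.57, 10.12 and 10.22. AT1G13990 (-1.13) and AT5G52810 (-0.98) were also called lower in mkk1, and AT5G37480 (-0.67) in mkk2.

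AT2G39210 was called higher in both untreated single mutants, at 7.16, 8.10 and 8.59 in mkk1 (1.29, adjusted p = 0.00726 by limma) and 7.73, 7.64 and 8.42 in mkk2 (1.27, adjusted p = 0.0172 by limma), against 6.22, 6.55 and 7.22 in Col-0. The untreated double mutant read 10.27, 10.50 and 10.65, above each single mutant with no overlap. AT1G59710 was also called higher in both, by 0.80 in each (adjusted p = 0.0009 in mkk1 and 0.0023 in mkk2, limma). AT4G01700 (1.14), AT2G18690 (1.13) and AT4G23470 (1.10) were called higher in mkk1. Of 32 alternative settings, the call in mkk1 was lost under 20 for AT4G01700, 6 for AT2G18690 and 0 for AT4G23470. It was lost under 1 for AT2G39210 and AT5G52810 and 0 for AT1G13990 and AT1G76960. The call in mkk2 was lost under 7 for AT5G37480, 4 for AT2G39210 and 1 each for AT1G59710 and AT1G76960. Without untreated mkk1/mkk2 array A, BTH-treated Col-0 array A and untreated mkk2 array B, the calls were 30 in mkk1 and 9 in mkk2, in place of 13 and 4. Without 1 array they ran from 5 to 23 in mkk1, lowest without untreated Col-0 array A and highest without untreated mkk1/mkk2 array A, and from 2 to 10 in mkk2.

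After BTH, mkk2 tended to stand above Col-0 and mkk1 less so. The median difference from Col-0 was 0.40 in mkk2, with 125 members at or above Col-0, and 0.20 in mkk1. By limma, 15 members were called higher in mkk2 and 0 lower, where 0.954% and 0.879% of all probe sets were called. The choice asked for a high mkk2 BTH mean and set an upper limit on the Col-0 BTH mean, which favours mkk2 above Col-0, so the count is a description and nothing is read from the background; the same holds for mkk1. In mkk1, 0 were called (0.62% of all probe sets in either direction), with 29 at an unadjusted p under 0.05 and a lowest adjusted p of 0.0734. That mkk2 and mkk1 differ from each other after BTH was not tested. Of the 15 called in mkk2, 14 were also called higher in mkk1/mkk2 than in Col-0, as were 84 of all 143 members. Both comparisons use the same BTH-treated Col-0 arrays, so nothing is read from this overlap. The largest called differences in mkk2 were those of AT1G52200 (1.80), AT2G18690 (1.60), MSRB9 (1.57) and AT1G57630 (1.49). Of 32 alternative settings, the call was lost under 7 for AT1G52200, 5 for AT2G18690, 8 for MSRB9 and 0 for AT1G57630. The count of 15 was 3 without array A of BTH-treated Col-0 or of BTH-treated mkk2, 4 and 6 without mkk2 arrays C and B, and 9 without Col-0 array B. It was 31 without Col-0 array C and 37 without untreated mkk1/mkk2 array A.

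**Figure D5:**
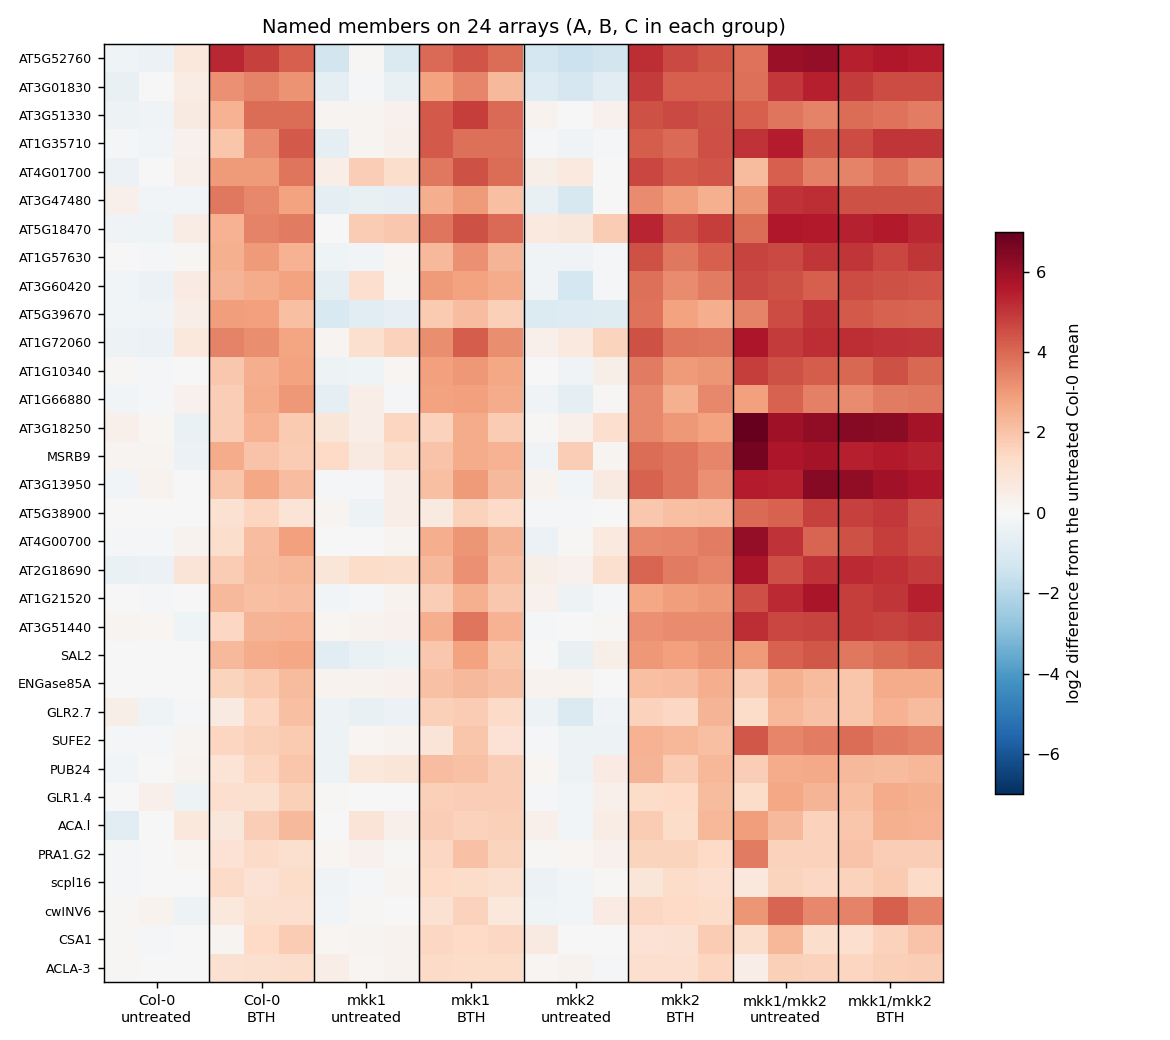
Log2 difference of each array from the gene's untreated Col-0 mean (colour) for named members (rows) on the 24 arrays (columns, A to C in each group): the 13 genes with the greatest BTH difference, the 8 with the greatest excess over BTH-treated Col-0, then the other members with a gene symbol. Both mkk1/mkk2 groups stand above untreated Col-0 in these rows, and array A of untreated mkk1/mkk2 differs from B and C in rows such as PRA1.G2, AT4G01700 and AT5G52760.

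The 56 probe sets (55 genes, with AT5G44820 on a pair of them) that BTH raised in the same 3 genotypes but that lay below the BTH-treated Col-0 mean in untreated mkk1/mkk2 are the natural comparison. Their median level was 8.38 in BTH-treated Col-0, 7.83 in untreated mkk1/mkk2 and 8.22 in BTH-treated mkk1/mkk2. Their median BTH change in mkk1/mkk2 was 0.28, against 0.04 in the members. By limma 0 were called higher and 1 lower, where 0.264% and 0.0703% of all probe sets were called. Between mkk1/mkk2 and Col-0 after BTH, 0 were called higher and 7 (12.5%) lower, where 11.4% and 10.2% of all probe sets were called. The share called lower is near the background and is no result about these genes. Untreated array A was the lowest of the 3 for 44 of the 56. Without it, their median change in mkk1/mkk2 was -0.10, against -0.01 in the members, their median untreated level was 8.31, and 25 of the 56 were at or above the BTH-treated Col-0 mean. Which probe sets fell on either side of the choice thus rested in part on 1 array. Both sets were cut on the untreated mkk1/mkk2 level, so these figures are given side by side with no test.

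A few members lay near each other on the chromosomes of the TAIR10.1 reference annotation. Of 138 that could be placed in the order of protein-coding genes, 18 fell in 7 runs in which neighbouring members were at most 5 genes apart. Runs were not counted for other sets of genes, so nothing is read from this count. The longest run held AT5G52740, AT5G52750, AT5G52760 and AT5G52810 on chromosome 5, with mean BTH differences of 2.50, 2.77, 5.22 and 2.12 over Col-0, mkk1 and mkk2. AT3G60420, AT3G60450 and AT3G60470 formed another on chromosome 3. Within it, the excess of untreated mkk1/mkk2 over BTH-treated Col-0 was 1.83, 0.49 and 2.65, so neighbours did not share 1 size of excess. Chromosome 2 held 7.7% of members and 16.3% of the genes with a single-gene probe set, and chromosome 5 held 27.5% and 22.3%.

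In the annotation used, 9 of 72 genes of the surrounding pathways were given a single-gene probe set, and none of the 11 in the kinase cascade list. Many probe sets there carry several gene symbols or none, so the other genes may still be on the array. SAG101, a partner of EDS1 in immune signalling, read 4.92, 5.65 and 5.88 in BTH-treated Col-0, a change of 0.65 (adjusted p = 0.207 by limma). It read 5.60, 6.77 and 6.81 in untreated mkk1/mkk2, 1.56 above untreated Col-0 (adjusted p = 0.000273). The glutaredoxin gene GRX480 and the glycosyltransferase gene UGT76B1, both left out of the members by name, were called higher after BTH in Col-0, by 3.63 and 2.38, where 4.55% of all probe sets were called higher and 4.27% lower. In mkk1/mkk2 their BTH changes of -0.40 and 0.78 were not called. PDF1.2, a defensin gene of the jasmonate and ethylene branch, was 1.10 higher in untreated mkk1/mkk2 than in untreated Col-0 (adjusted p = 0.0357 by limma), and its BTH change in Col-0 was -0.20 (adjusted p = 0.846).

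Markers of other states and organs moved in part with the double mutant. Of 3 measured senescence genes, WRKY6 was called higher in untreated mkk1/mkk2 than in untreated Col-0 (2.10) and WRKY53 (0.50) and SAG29 (-0.37) were not. Of 2 measured root markers, PYK10 was called higher (4.35) and EXPA7 was not (-0.01). Over all probe sets 16.1% were called higher and 17.2% lower in that comparison. PYK10 read 4.23, 5.02 and 4.68 in untreated Col-0 and 7.76, 9.53 and 9.68 in untreated mkk1/mkk2. But it also read 8.37, 8.16 and 7.30 in untreated mkk1, where the members stood near their Col-0 level. It varied widely within other groups, at 4.59, 8.52 and 4.67 in untreated mkk2 and 7.24, 5.16 and 3.53 in BTH-treated Col-0. EXPA7 read 3.85 to 4.90 in untreated mkk1/mkk2 and 4.04 to 4.57 in untreated Col-0. The part of tissue share or plant age in the members' levels was not tested.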

How the data were processed

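The authors deposited log2 RMA expression values for 22810 probe sets on 24 ATH1 arrays, and per the submitters' processing notes these were made with RMA, whose version is not given in the sources used here. RMA corrects background, normalizes arrays by quantiles and summarizes probes. After 64 control probe sets were set aside, 22746 entered the tests, unfiltered and as deposited. Genes were named from the platform annotation, which gave 1 symbol for 13513 probe sets, several for 503 and none for 8730; 142 of the 143 members were found in the TAIR10.1 gene table. No sequence or coordinate is printed.

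Groups and replicate letters came from sample titles. Each comparison was a contrast in 1 model with a mean for each of the 8 groups (limma 3.58.1, functions lmFit and eBayes, R 4.3.3, with data.table version 1.17.8), two-sided, with Benjamini-Hochberg adjustment over the 22746 probe sets; the code was tested on simulated data. The 3 arrays per group limit the precision. Of 84 same-letter pairs of arrays across groups, 26 had deviations correlated over 0.1. All 3 letters did so only between untreated and BTH-treated mkk1/mkk2 (0.305, 0.287 and 0.17), where the letter as a block on those 6 arrays gave 0 calls, as without it.

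The members, lists and tests were chosen with earlier results of these data known. Named in the text are the 12 members with the greatest mean BTH difference in Col-0, mkk1 and mkk2 (and 1 that ties), the 8 with the greatest excess of untreated mkk1/mkk2 over BTH-treated Col-0, the largest called changes, members at the thresholds and members with a gene symbol. AT4G25900, AT1G65690 and AT5G05300 in the mkk1/mkk2 BTH comparison were picked after their values were seen. Alternatives were a replicate block, array weights, only the groups compared, a level filter, centring, requantiling, an intensity trend and leaving out arrays.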

Additional observations from a re-analysis of the deposited data

How the results depend on the processing

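The largest calls of mkk1/mkk2 against Col-0 after BTH and of each single mutant against Col-0 were followed under the alternatives. None of them reversed direction. The other calls named here were not followed. The number of members was 191 with a BTH difference of at least 0.8 and 58 with 1.5, 94 and 178 when untreated mkk1/mkk2 had to exceed BTH-treated Col-0 by 0.5 or by -0.5, 137 after centring each array on its median, and 129 to 160 without 1 array. The remaining counts are members called by limma. For mkk1/mkk2 against Col-0 after BTH (84), the count was 66 to 101 without 1 array, and no alternative moved it by over 1.5 times. The BTH response of mkk1/mkk2 had 0 to 1 calls without 1 array, the 1 being without untreated mkk1/mkk2 array C. Centring each array on its median gave 8 for untreated mkk1 against untreated Col-0. With array weights the counts were 51 for untreated mkk1 against untreated Col-0, 43 for untreated mkk2, 24 for mkk2 against Col-0 after BTH, 98 for mkk1/mkk2 against mkk1 and 87 against mkk2. These weights were very uneven: 0 for BTH-treated Col-0 array B, 25.87 for untreated Col-0 array B and 15.32 for BTH-treated mkk2 array A. The weighted counts therefore rest on few arrays in some groups, and nothing is read from them. Fitting only the arrays of the groups compared gave 21 for untreated mkk1, 0 for untreated mkk2 (limma), 96 for mkk1/mkk2 against mkk1 and 75 against mkk2. An alternative added after seeing the data left out untreated mkk1/mkk2 array A, BTH-treated Col-0 array A and untreated mkk2 array B. Untreated mkk1/mkk2 arrays B and C were kept, although they correlated lower with their group than the Col-0 and mkk2 arrays left out. The counts of this alternative were 30 for untreated mkk1, 9 for untreated mkk2, 1 for mkk1 against Col-0 after BTH, 64 for mkk1/mkk2 against mkk2 and 5 for untreated mkk1 against untreated mkk2. Without 1 array at a time, the counts ran from 5 (Col-0 untreated A) to 23 (mkk1/mkk2 untreated A) for untreated mkk1, 2 to 10 for untreated mkk2, 0 to 9 for mkk1 against Col-0 after BTH (9 without mkk1/mkk2 untreated A, 7 without Col-0 BTH C), 3 to 37 for mkk2 against Col-0 after BTH, 50 to 76 and 26 to 54 for mkk1/mkk2 against mkk1 and against mkk2, and 0 to 1 for untreated mkk1 against untreated mkk2. With the replicate letter as a block, mkk1 against Col-0 after BTH had 1 call in place of 0, untreated mkk1 had 16, mkk2 after BTH 21 and mkk1/mkk2 against Col-0 after BTH 83, of which 81 were also called without the block. The BTH response of mkk1/mkk2, the comparison whose letters deviated together, had 0 calls with the block on all arrays, and 0 on its own 6 arrays (limma, 3 at an unadjusted p under 0.05, an alternative added after seeing the data). The cause of these shifts was not tested.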
